A study of Mus musculus with 24 samples.

Results

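Mitochondria in muscle fibres form a network that is remodelled by fusion, which joins organelles, and by fission, which divides them. The 10 genes described here encode the core of that machinery: the outer membrane mitofusins Mfn1 and Mfn2, the inner membrane fusion GTPase Opa1 and its protease Oma1, the division GTPase Dnm1l (the protein is known as DRP1), its outer membrane receptors Fis1, Mff, Mief1 and Mief2, and the inner membrane fission protein Mtfp1. They are a list of gene names from the pathway, with no measured value in the rule, although it was chosen with earlier results of these data known. They are 10 of 55487 genes in the deposited tables. All 10 passed the filter on low values and are among the 14690 genes tested.

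Fusion lets mitochondria share membrane, proteins and mitochondrial DNA, whereas fission separates damaged segments and allows organelles to be moved or degraded. DRP1 is a soluble protein that works only once it has been recruited to the outer membrane, so the receptors set where division happens. The mitofusins act on the outer membrane and OPA1 on the inner membrane, where OPA1 also shapes the cristae. In skeletal muscle both processes are needed to keep fibre mass, and loss of either in mouse muscle leads to atrophy.

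RNA of the gastrocnemius, a calf muscle, was sequenced in 24 male C57BL/6J mice, 1 library per mouse and 8 per group. In the casted group with MOTS-c, both hindlimbs were held in casts for 8 days and the mice received MOTS-c, a peptide encoded in mitochondrial DNA, at 15 mg/kg/day, given intraperitoneally as 2 daily injections over the same 8 days. The casted group had the same casts and 2 water injections a day, and the uncasted group had water injections and no casts. All mice were assigned at 10 weeks of age and are labelled as 12 weeks old. There was no group that received MOTS-c without casts, so the peptide can be described here only in casted muscle. No genotype other than the strain is labelled.

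The deposited values are TPM, the share of a gene in its library's transcripts after correction for their length, and the read depth behind them is unknown. Levels are given below as TPM after a trimmed-mean scaling of the libraries (scaled TPM), and fold changes are on the log2(scaled TPM + 1) scale with the standard error from limma. The libraries carried the markers of skeletal muscle, whose 8 genes (actin, myosins and others) summed to 71050 to 89350 deposited TPM in casted muscle with MOTS-c, 68210 to 85970 in casted muscle and 96320 to 104400 in uncasted muscle. Summed macrophage markers were 61.4 to 173.5, 63.1 to 149.9 and 28.1 to 42.7 deposited TPM in the same order of groups. Summed neutrophil markers were 3.08 to 22.6, 4.91 to 20.8 and 0 to 1.05 TPM, and summed adipocyte markers were 22.9 to 39.6, 17.2 to 30.1 and 7.85 to 16.4 TPM. In casted against uncasted muscle, 4 of 6 macrophage, 3 of 3 tested neutrophil and 0 of 4 adipocyte markers were higher on the scaled values, and 0 lower. The deposited TPM gave 6, 3 and 3 of them higher and 0 lower. Summed endothelial, fibroblast and Schwann cell markers overlapped between groups on the deposited TPM. On the scaled values 5 of 5, 3 of 5 and 2 of 4 of these genes were lower in casted than in uncasted muscle and 0 higher, beside 27.7% of all genes lower and 28.7% higher. On the deposited TPM 2, 2 and 1 of them were lower and 1, 2 and 0 higher, beside 7.43% of all genes lower and 62.2% higher. The part of these markers in the results below was not tested, and in whole muscle fewer cells of a type and less RNA per cell cannot be told apart. On the deposited TPM, the median gene was 0.39 higher (log2) in casted than in uncasted muscle, 0.34 higher in casted muscle with MOTS-c than in uncasted muscle, and differed by -0.07 between MOTS-c and casting alone. Every direction below is therefore relative to the middle of all genes, and the deposited scale is given wherever it turns a direction.

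In uncasted muscle the mitofusins were the most abundant of the 10. Mfn2 had a median of 263.9 scaled TPM and Mfn1 one of 194.5, and these ranges overlapped. The receptors Mff (median 117.4) and Fis1 (113.3) followed and did not differ beyond their spread. Opa1 (52.1), Mief2 (47.9), Dnm1l (43.9) and Mtfp1 (36.6) formed the next group, each overlapping the next in order. Oma1 (17.1) and Mief1 (9.07) were lowest, and the ranges of Mtfp1 and Oma1, and of Oma1 and Mief1, did not overlap. The receptor transcripts Mff and Fis1 were thus each more abundant, per length, than the transcript of the GTPase they recruit. In casted muscle, with or without MOTS-c, the order was Mfn2, Mfn1, Fis1, Mff, Dnm1l, Opa1, Mief2, Oma1, Mtfp1 and Mief1, so that Mtfp1 stood below Oma1.

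**Figure D1:**
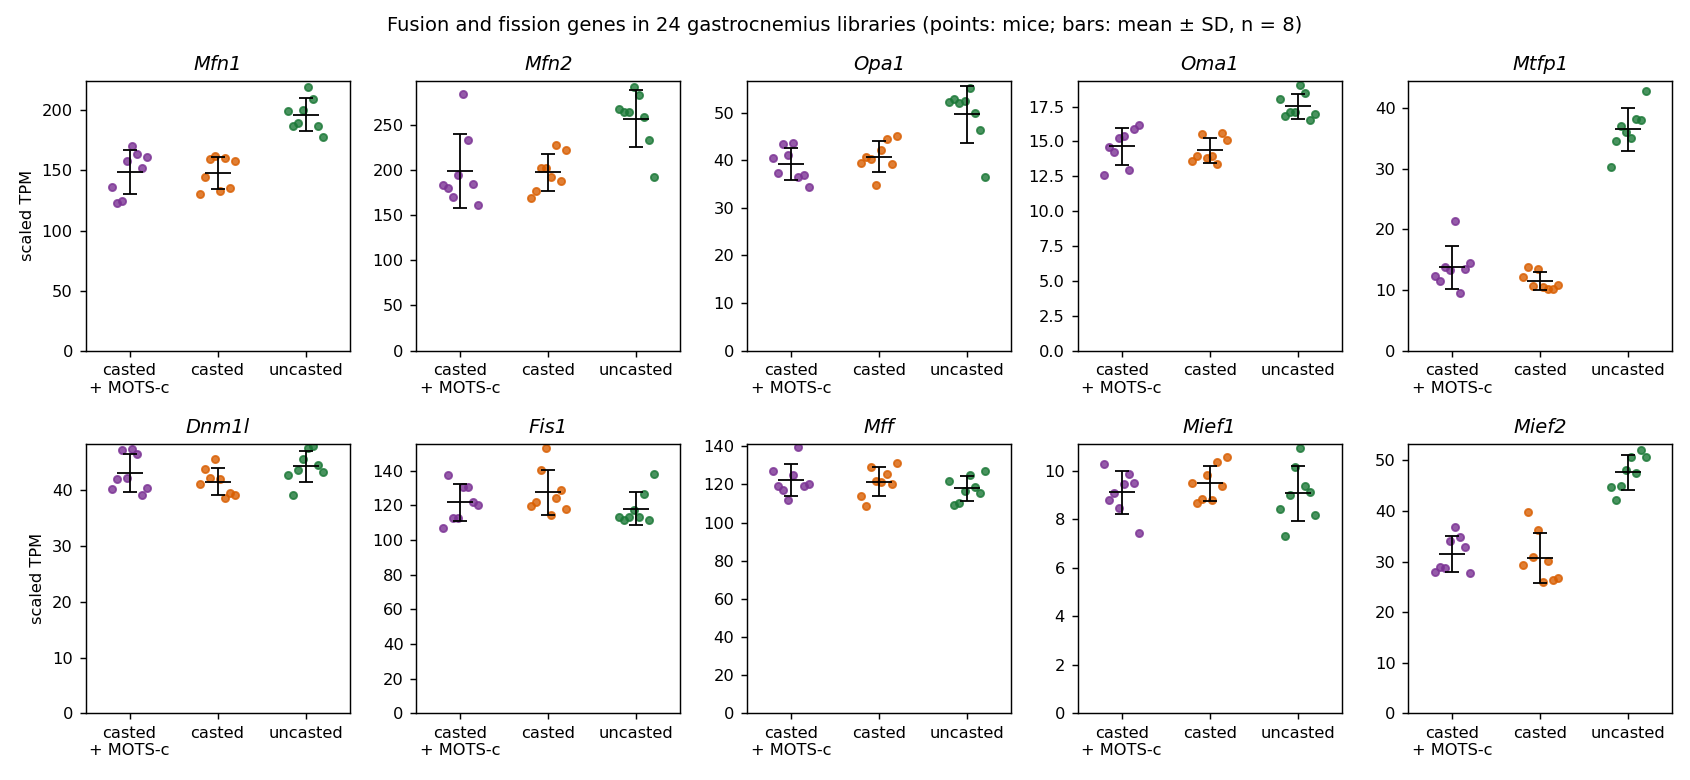
Scaled TPM of each of the 10 genes in the 24 libraries, 1 point per mouse, with the mean and SD of the 8 libraries of a group as bars. Mtfp1, Mief2, Mfn1 and Oma1 in casted muscle, with or without MOTS-c, lie below every uncasted library on this scale, while Dnm1l, Fis1, Mff and Mief1 overlap between groups. On the deposited TPM the casted means of Mfn1 and Oma1 are not lower. There Dnm1l, Fis1, Mff and Mief1 in casted muscle without MOTS-c lie above every uncasted library.

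Positions are on the build GRCm38. Mfn1 (ENSMUSG00000027668) is at chr3:32529465-32579239 on the plus strand, and Mfn2 (ENSMUSG00000029020) is at chr4:147873599-147904704 on the minus strand. Opa1 (ENSMUSG00000038084) is at chr16:29579334-29654884, and Oma1 (ENSMUSG00000035069) is at chr4:103313812-103371868, both on the plus strand. Dnm1l (ENSMUSG00000022789) is at chr16:16312230-16358959 on the minus strand. Fis1 (ENSMUSG00000019054) is at chr5:136953275-136966234, Mff (ENSMUSG00000026150) at chr1:82724890-82752394 and Mief1 (ENSMUSG00000022412) at chr15:80234018-80253371, all on the plus strand. Mief2 (ENSMUSG00000018599) is at chr11:60728398-60732951 on the plus strand and Mtfp1 (ENSMUSG00000004748) at chr11:4091480-4095445 on the minus strand. One annotation bears on the values: AC140267.1, a short coding gene of 213 bases, lies within Mief1 on the same strand with 100% identity, and was listed at 0 to 6.86 deposited TPM. How reads were divided between it and Mief1 is not known, so the values of Mief1 are uncertain. A processed pseudogene of Dnm1l, Gm13719, with 91.1% identity, was listed at no more than 0.16 TPM.

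Promoters are shown for Mtfp1, Mief2 and Mfn1, the genes with the largest falls in casted muscle described below, for Opa1, which holds the rarest motif found, and for Fis1, which did not pass the test. All 10 genes were matched by symbol to RefSeq promoters on GRCm38.p6, 15 promoters in all. Each line holds the 250 bases before an annotated start, 5′ to 3′ on the gene's strand, with capitals where a searched motif occurs on either strand.
Mtfp1, chr11:4095432-4095681, minus strand: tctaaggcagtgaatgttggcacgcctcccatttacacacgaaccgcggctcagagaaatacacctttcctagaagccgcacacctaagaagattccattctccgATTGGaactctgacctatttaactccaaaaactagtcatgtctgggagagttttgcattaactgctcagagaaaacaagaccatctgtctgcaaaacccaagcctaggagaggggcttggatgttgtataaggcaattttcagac
Mief2, chr11:60728148-60728397, plus strand: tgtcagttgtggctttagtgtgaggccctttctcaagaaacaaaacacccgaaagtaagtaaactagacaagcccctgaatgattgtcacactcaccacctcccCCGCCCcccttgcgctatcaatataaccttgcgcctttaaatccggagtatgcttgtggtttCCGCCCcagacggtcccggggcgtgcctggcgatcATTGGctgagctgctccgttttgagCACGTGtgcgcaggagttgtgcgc
Mfn1, chr3:32529232-32529481, plus strand: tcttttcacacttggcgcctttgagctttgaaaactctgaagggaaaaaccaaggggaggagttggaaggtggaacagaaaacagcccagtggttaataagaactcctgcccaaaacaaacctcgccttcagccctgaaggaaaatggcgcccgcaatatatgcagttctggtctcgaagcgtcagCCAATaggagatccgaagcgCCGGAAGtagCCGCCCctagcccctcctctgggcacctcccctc
Opa1, chr16:29579084-29579333, plus strand: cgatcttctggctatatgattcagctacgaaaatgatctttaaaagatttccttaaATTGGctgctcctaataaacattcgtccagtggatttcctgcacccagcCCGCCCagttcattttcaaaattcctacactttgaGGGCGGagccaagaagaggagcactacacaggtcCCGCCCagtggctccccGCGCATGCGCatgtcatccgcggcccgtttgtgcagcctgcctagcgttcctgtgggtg
Fis1, chr5:136953025-136953274, plus strand: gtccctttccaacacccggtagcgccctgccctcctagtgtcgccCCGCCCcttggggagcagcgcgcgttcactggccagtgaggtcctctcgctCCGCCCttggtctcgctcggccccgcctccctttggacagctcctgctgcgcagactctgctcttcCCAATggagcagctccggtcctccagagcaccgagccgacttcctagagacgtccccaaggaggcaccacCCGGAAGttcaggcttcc

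Both strands were searched for 10 short motifs in these 15 promoters and in all 32851 RefSeq promoters of the same length. The GC box GGGCGG, a motif of SP1, occurred in 12 of the 15 promoters (9 of the 10 genes), beside 32.7% of all promoters, and Mtfp1 was the gene without it. The windows of Mff overlap and count the same GC box more than once, and those of Mfn2 overlap too. The count of genes pools the windows of a gene, so it cannot be set against a share of promoters. Base composition was not compared. The CCAAT box occurred in 7 of the 15 promoters, 1 each of 7 genes, beside 33.8% of all promoters, and is the single motif of those searched in the Mtfp1 promoter. The ETS motif CCGGAAG occurred in Mfn1, Fis1 and Mief1 (6.91% of all promoters), the NRF1 palindrome (GCGCA followed directly by its reverse complement) in Opa1 (0.782%) and the E-box CACGTG in Mief2 (6.02%). The ERR element AAGGTCA (4.08% of all promoters), the YY1 motif (AAGAT followed directly by GGCGG, 0.301%), the CRE TGACGTCA (1.55%), the MEF2 motif (CTAAA followed directly by AATAG, 0.103%) and the FoxO motif GTAAACA (3.17%) did not occur in these windows. In the Opa1 line the NRF1 palindrome stands downstream of 3 GC boxes, and in the Mief2 line the E-box stands closest to the start. A match describes letters and not a bound site.

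The first comparison asks how 8 days of casting changed these transcripts. Relative to the middle of all genes, transcripts of the fusion genes Mfn1, Mfn2 and Opa1 and of the OPA1 protease Oma1 were lower in casted muscle. Those of the division genes Mtfp1 and Mief2 were lower too, and the remaining division genes did not pass the test. Of the 10 genes, 6 fell (Mfn1, Mfn2, Opa1, Oma1, Mief2 and Mtfp1), none rose and 4 did not pass (Dnm1l, Fis1, Mff and Mief1), by limma with Benjamini-Hochberg adjustment at 0.05. Among all genes tested 27.7% were lower and 28.7% higher, 56.5% in either direction, so the share of the 10 that changed is near the background. The median fold change of the 10 was -0.27, beside 0.01 for all genes, and on the deposited TPM it was 0.22 beside 0.39. In 4 of the 10 the casted and uncasted libraries did not overlap in scaled TPM, all of them lower in casted muscle, beside 10.9% of all genes lower without overlap. On the deposited TPM 5 did not overlap: Mtfp1 was lower in casted muscle, and Dnm1l, Fis1, Mff and Mief1 were higher. The share of all genes without overlap on that scale is not given here.

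Mtfp1 encodes an inner membrane protein, also called MTP18, whose loss makes mitochondria hyperfused in cultured cells. It had 10.2, 10.7 and 13.8 scaled TPM (lowest, median and highest) in casted muscle, against 30.3, 36.6 and 42.8 in uncasted muscle. All 8 casted libraries were below every uncasted one, and means fell by 68.6%. The fold change was -1.59 ± 0.11 (limma adjusted p = 2.58e-11). It was the largest fall among the 10 genes, and it passed the threshold on the deposited TPM (-1.10) and with libraries scaled to equal nuclear mitochondrial genes (-1.07) as well.

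Mief2 encodes MiD49, a receptor that brings DRP1 to the outer membrane. Its lowest, median and highest values were 26.0, 29.7 and 39.9 scaled TPM in casted muscle and 42.2, 47.9 and 52.0 in uncasted muscle, without overlap. Its fold change was -0.63 ± 0.08 (limma adjusted p = 6.26e-07). On the deposited TPM the value was -0.12 (adjusted p = 0.104), which did not pass. Its paralog Mief1, which encodes MiD51, behaved otherwise: 8.67, 9.43 and 10.6 scaled TPM in casted muscle stood against 7.33, 9.07 and 10.9 in uncasted muscle, overlapping ranges with a fold change of 0.06 ± 0.07 (95% confidence interval -0.08 to 0.21, adjusted p = 0.459). The Mief1 value on the deposited scale was 0.53 (adjusted p = 2.93e-06), a rise there without overlap.

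The mitofusins tether the outer membranes of adjacent mitochondria, and Mfn2 also links mitochondria to the endoplasmic reticulum. Mfn1 had 130.2, 151.2 and 162.0 scaled TPM (lowest, median and highest) in casted muscle, against 178.0, 194.5 and 219.6 in uncasted muscle. No casted library reached the lowest uncasted one, and the fold change was -0.41 ± 0.07 (limma adjusted p = 3.24e-05), but 0.10 (adjusted p = 0.149) on the deposited TPM. Mfn2 had 169.0, 196.9 and 227.8 scaled TPM in casted muscle and 191.6, 263.9 and 291.4 in uncasted muscle. These ranges overlapped, with 3 casted libraries below the lowest uncasted one, which was replicate 8. The next lowest uncasted value was 232.6 in replicate 7, above the highest casted value, so the overlap came from uncasted replicate 8 alone. The Mfn2 fold change was -0.37 ± 0.10 (adjusted p = 0.00274), but 0.14 (adjusted p = 0.181) on the deposited TPM. The mitofusins thus fell by similar amounts on the scaled values, and neither passed the test on the deposited ones.

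On the inner membrane, Opa1 had 34.9, 40.5 and 45.0 scaled TPM in casted muscle, against 36.4, 52.1 and 55.1 in uncasted muscle, with overlap. The low end of the uncasted range is 1 library, replicate 8. The fold change was -0.27 ± 0.07 (limma adjusted p = 0.00287), but 0.23 (adjusted p = 0.0358), a rise, on the deposited TPM. With casted replicates 5 to 8 alone in the fit the scaled value was -0.20 (adjusted p = 0.0604), which did not pass. Oma1, the zinc metalloprotease that cuts OPA1 when the membrane potential is lost, had 13.4, 13.9 and 15.6 scaled TPM in casted muscle and 16.5, 17.1 and 19.0 in uncasted muscle. Its groups did not overlap, and the fold change was -0.27 ± 0.06 (adjusted p = 0.000203), but 0.22 (adjusted p = 0.0100), a rise, on the deposited TPM.

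Dnm1l and its receptors Fis1 and Mff did not pass the test on the scaled values, where the groups overlapped. Dnm1l, the GTPase that constricts mitochondria, had 38.5, 41.5 and 45.5 scaled TPM in casted muscle and 39.1, 43.9 and 47.8 in uncasted muscle. Its fold change was -0.09 ± 0.05 (95% confidence interval -0.20 to 0.02, limma adjusted p = 0.153). Fis1, a tail-anchored outer membrane protein, had 114.6, 123.1 and 153.2 scaled TPM in casted muscle and 111.4, 113.3 and 138.0 in uncasted muscle, with a fold change of 0.11 ± 0.07 (-0.03 to 0.24, adjusted p = 0.162). Mff, the receptor needed for most DRP1 recruitment in mammalian cells, had 108.8, 121.5 and 131.2 scaled TPM in casted muscle and 109.2, 117.4 and 127.1 in uncasted muscle, with a fold change of 0.04 ± 0.05 (-0.06 to 0.15, adjusted p = 0.508). On the scaled values the intervals leave room for changes of at most 0.24 on the log2 scale for these genes. They do not include the uncertainty of the scaling itself. On the deposited TPM all of them rose without overlap, by 0.41 for Dnm1l (adjusted p = 1.70e-06), 0.62 for Fis1 (1.85e-09) and 0.55 for Mff (3.42e-08).

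The number of calls depended on the scaling. On the deposited TPM 6 of the 10 genes were higher and 1 lower in casted than in uncasted muscle, beside 62.2% and 7.43% of all genes. With libraries scaled to 18 nuclear genes of mitochondrial mass (respiratory chain subunits, porins and others), 6 were higher and 1 lower, beside 64.3% and 6.73% of all genes. Mtfp1 is the 1 gene that was lower in casted muscle with the test passed under each of these scalings. The mass scaling lies close to the deposited TPM: the median gene was 0.41 and 0.39 higher (log2) in casted muscle under them. Their results are therefore nearly the same by construction and are not separate checks. Of those 18 mass genes 15 fell on the scaled values, with a median of -0.59, and 3 did not pass, whereas on the deposited TPM 5 were higher and 8 lower, with a median of -0.08. Beside them the median of the 10 fusion and fission genes was -0.27 on the scaled values and 0.22 on the deposited TPM.

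**Figure D2:**
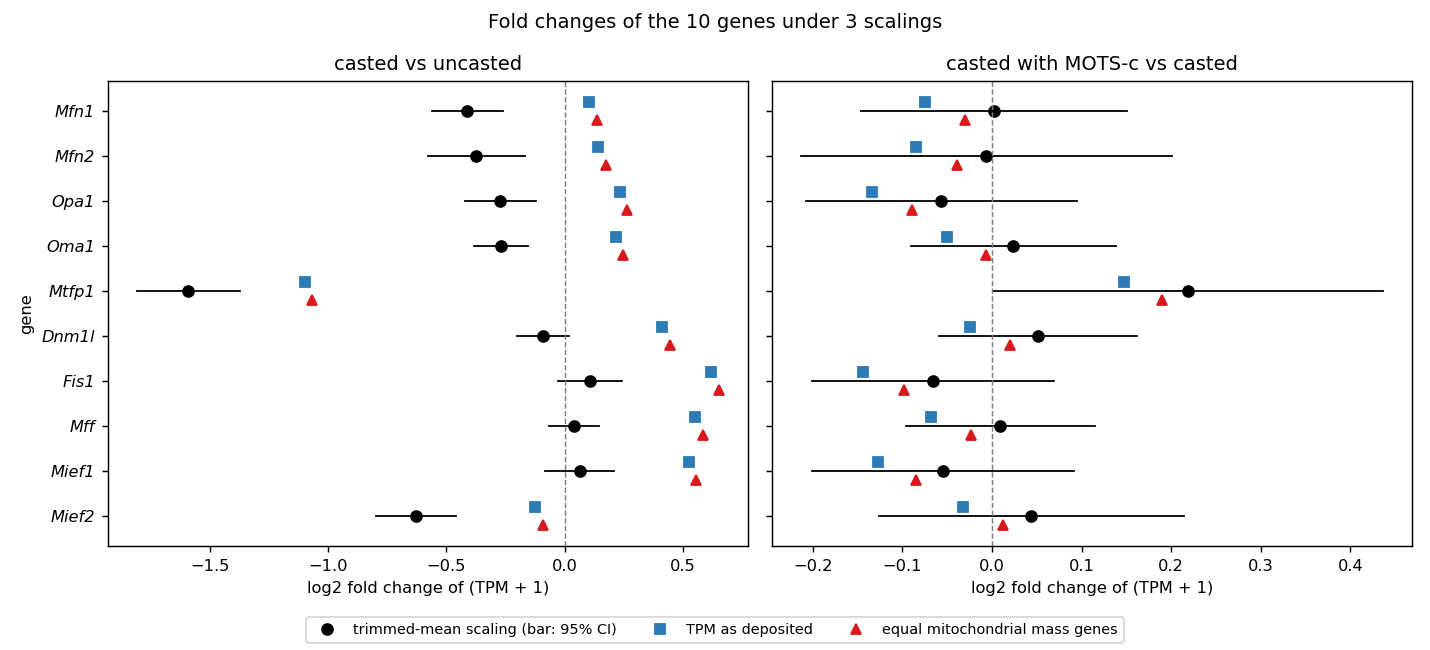
Log2 fold change of (TPM + 1) for the 10 genes under 3 scalings, for casted against uncasted muscle and for casted muscle with MOTS-c against casted muscle; bars are 95% confidence intervals of the trimmed-mean values. Casting moves Mtfp1 to -1.59, -1.10 and -1.07, whereas 8 genes, such as Mfn1 at -0.41, 0.10 and 0.14, lie above 0 on the other scalings.

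Quantities within a library do not depend on the scaling and are given as descriptions. Of the summed TPM of the 10 genes, Mtfp1 made up 1.55 ± 0.23% in casted muscle and 4.10 ± 0.54% in uncasted muscle (SD, n = 8 each), without overlap. The share of Mff was 16.4 ± 0.76% in casted muscle and 13.2 ± 0.93% in uncasted muscle, without overlap, and that of Mfn1 was 19.9 ± 0.72% in casted muscle and 22.0 ± 0.58% in uncasted muscle, also without overlap. For Fis1 the shares were 17.2 ± 1.3% in casted muscle and 13.3 ± 1.4% in uncasted muscle, and for Mfn2 they were 26.5 ± 1.6% and 28.6 ± 2.6%, both with overlapping libraries. Within the 10 transcripts, casted muscle thus held a larger share of Mff and a smaller one of Mfn1 and Mtfp1, whichever scaling is used.

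Among ratios of gene pairs, that of Mief1 to Mief2 differed without overlap. It was 0.316 ± 0.056 in casted muscle, between 0.217 and 0.394, and 0.191 ± 0.019 in uncasted muscle, between 0.161 and 0.216 (SD, n = 8 each). Because the values of Mief1 are uncertain, the ratio was also taken with AC140267.1 added to Mief1, a choice made after seeing the data, and was then 0.392 ± 0.049 in casted muscle and 0.234 ± 0.047 in uncasted muscle, again without overlap. In casted muscle with MOTS-c that ratio lay between 0.288 and 0.474, which overlapped the highest uncasted library at 0.296. The ratio of Mfn2 to Dnm1l, fusion against division GTPase, was 4.79 ± 0.68 in casted muscle and 5.82 ± 0.75 in uncasted muscle, with overlap. The other ratios within a function overlapped: Mfn1 to Mfn2 was 0.751 ± 0.050 in casted muscle and 0.773 ± 0.077 in uncasted muscle, Opa1 to Oma1 was 2.85 ± 0.28 in casted and 2.83 ± 0.31 in uncasted muscle, and Fis1 to Mff was 1.05 ± 0.11 in casted and 1.001 ± 0.064 in uncasted muscle.

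**Figure D3:**
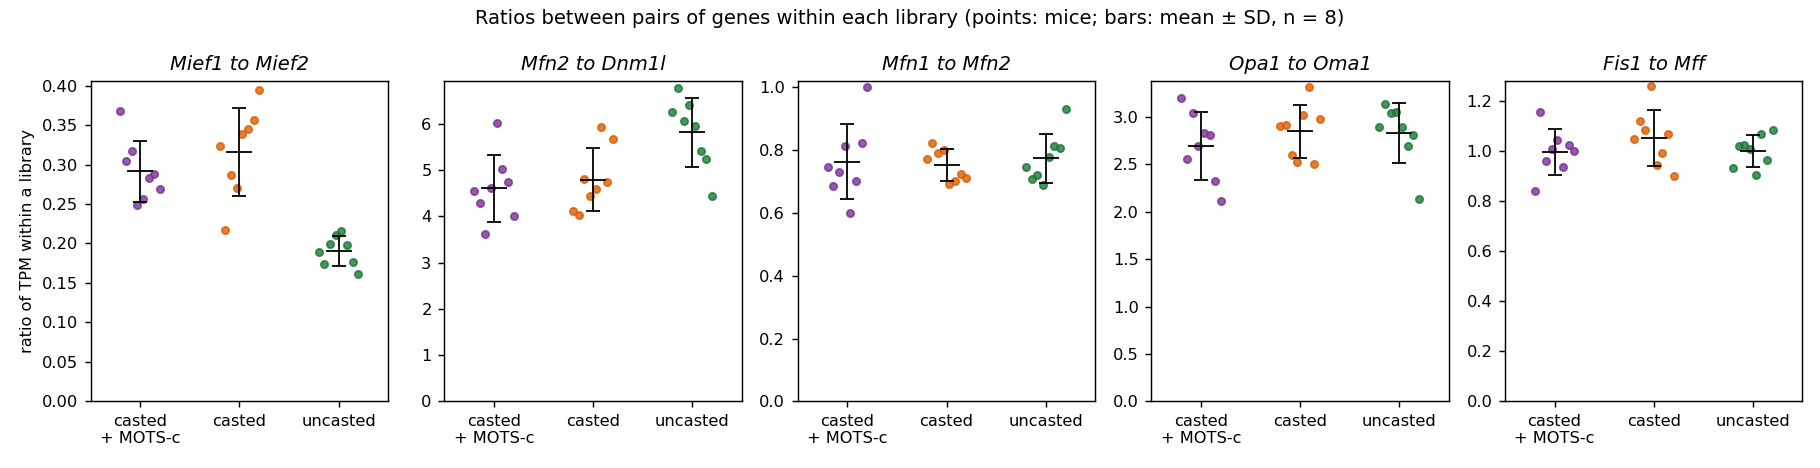
Ratio of TPM between 5 pairs of the genes within each of the 24 libraries, 1 point per mouse, with the mean and SD of 8 libraries as bars. Mief1 to Mief2 is above every uncasted library in casted muscle with or without MOTS-c, although with AC140267.1 added to Mief1 the MOTS-c libraries overlap the uncasted ones, and the other 4 ratios overlap between casted and uncasted muscle.

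The second comparison asks whether MOTS-c changed these transcripts in casted muscle, and none of the 10 passed the test. Adjusted p-values from limma ran from 0.369 to 0.992, 1 gene had an unadjusted p under 0.05, and of all genes tested 3 passed, 0.0204% of them. That total rests on single libraries: it was 41 higher and 22 lower without casted replicate 1, and 0 without casted replicate 7 (1450 with an unadjusted p under 0.05), among 24 fits that each leave out 1 library. The gene with the unadjusted p under 0.05 was Mtfp1, with 9.48, 13.4 and 21.4 scaled TPM (lowest, median and highest) in casted muscle with MOTS-c, against 10.2, 10.7 and 13.8 in casted muscle. These ranges overlapped, and the highest value belongs to 1 mouse, replicate 5 of the MOTS-c group. The fold change was 0.22 ± 0.11 (95% confidence interval 0.00 to 0.44, unadjusted p = 0.0485, adjusted p = 0.369). Without that mouse it was 0.13 (adjusted p = 0.622). The 16 casted mice as a whole had less Mtfp1 than any uncasted mouse.

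The other 9 genes differed between MOTS-c and casting alone by less than the spread of the libraries, and their groups overlapped. Mfn1 had 123.1, 154.6 and 170.3 scaled TPM with MOTS-c, against the casted values above, with a fold change of 0.00 (95% confidence interval -0.15 to 0.15). Mfn2 had 161.2, 183.6 and 283.8 with MOTS-c and a fold change of -0.01 (-0.21 to 0.20), the widest interval after Mtfp1. Its highest value belongs to replicate 5 of the MOTS-c group, the mouse that was also highest for Mtfp1, and the next value was 233.0. Opa1 had 34.3, 38.9 and 43.6 with MOTS-c and a fold change of -0.06 (-0.21 to 0.09). For these fusion genes a change larger than 0.21 in either direction lies outside the interval on the scaled values.

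Among the remaining genes, Oma1 had 12.6, 14.9 and 16.2 scaled TPM with MOTS-c and a fold change of 0.02 (-0.09 to 0.14). Dnm1l had 39.0, 42.0 and 47.2 with a fold change of 0.05 (-0.06 to 0.16). Fis1 had 107.0, 121.1 and 137.7 with a fold change of -0.07 (-0.20 to 0.07). The ranges of these 3 genes overlapped those of the casted libraries in part, with 3 libraries of Dnm1l above the highest casted one and 3 of Fis1 below the lowest. Mff had 111.8, 119.5 and 139.7 with MOTS-c and a fold change of 0.01 (-0.10 to 0.11). Mief1 had 7.46, 9.27 and 10.3 with a fold change of -0.05 (-0.20 to 0.09). Mief2 had 27.7, 30.9 and 36.9 with a fold change of 0.04 (-0.13 to 0.21). On the deposited TPM the small positive values of Mfn1, Oma1, Dnm1l, Mff and Mief2 were below 0 (-0.08, -0.05, -0.02, -0.07 and -0.03), and none passed there either. The ratio of Mief1 to Mief2 was 0.292 ± 0.038 with MOTS-c and 0.316 ± 0.056 with casting alone, and that of Mfn2 to Dnm1l was 4.60 ± 0.72 and 4.79 ± 0.68, with overlap.

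Against uncasted muscle, casted muscle with MOTS-c had 6 of the 10 genes lower, none higher and 4 not passed, beside 24.7% and 26% of all genes lower and higher. Mtfp1 changed by -1.37 (limma adjusted p = 4.76e-10), Mief2 by -0.58 (2.87e-06), Mfn1 by -0.41 (4.82e-05), Mfn2 by -0.38 (0.00284), Opa1 by -0.33 (0.000625) and Oma1 by -0.25 (0.000664). On the deposited TPM 5 of the 10 were higher and 2 lower, beside 60% and 6.94% of all genes. Those higher were Fis1 (0.48), Mff (0.49), Mief1 (0.40), Dnm1l (0.39) and Oma1 (0.17, adjusted p = 0.0454), and those lower were Mtfp1 (-0.95) and Mief2 (-0.16, adjusted p = 0.0449), while Mfn1 (0.03), Mfn2 (0.06) and Opa1 (0.10) did not pass. Mtfp1, Mief2, Mfn1 and Oma1 did not overlap uncasted muscle in scaled TPM, beside 8.15% of all genes lower without overlap. On the deposited TPM 4 did not overlap: Mtfp1 was lower with MOTS-c, and Dnm1l, Fis1 and Mff were higher. This comparison uses the uncasted libraries that the first one uses, so its values are not independent of it. Within the 10 transcripts, the share of Mtfp1 was 1.85 ± 0.37% in casted muscle with MOTS-c and 4.10 ± 0.54% in uncasted muscle, without overlap. The share of Mief2 was 4.25 ± 0.25% with MOTS-c and 5.34 ± 0.48% in uncasted muscle, and that of Dnm1l was 5.82 ± 0.49% and 4.95 ± 0.24%, both without overlap. The shares of Mfn1 and Mff, which did not overlap between casted and uncasted muscle, did overlap here, with 6 MOTS-c libraries below all uncasted ones and 1 above them for Mfn1, and 7 above them for Mff.

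The casted replicates 1 to 4 and 5 to 8, by their labelled numbers, were also fitted each on their own. The labels give no property other than the replicate number that separates these subsets, so the split is arbitrary. Differences between the subsets are descriptions, and their cause was not tested. Mtfp1 was -1.48 with casted replicates 1 to 4 and -1.71 with 5 to 8, and Mief2 was -0.48 and -0.78, against uncasted muscle. Mfn1 (-0.40 and -0.42) and Oma1 (-0.28 and -0.26) were near equal, while Mfn2 (-0.44 and -0.30) and Opa1 (-0.34 and -0.20) were lower with replicates 1 to 4. Against MOTS-c, the difference of Mtfp1 was 0.10 (limma adjusted p = 0.995) with replicates 1 to 4 as the casted group and 0.33 (adjusted p = 0.0930) with 5 to 8. The difference of Mief2 was -0.11 and 0.20.

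Other genes of the pathway were taken from 5 lists of 42 genes, 40 of them tested, and 11 rose, 17 fell and 12 did not pass in casted against uncasted muscle, with a median of -0.09, whereas on the deposited TPM 23 were higher and 5 lower, with a median of 0.41. Over all genes the shares were 28.7% higher and 27.7% lower on the scaled values, and 62.2% and 7.43% on the deposited TPM. The 4 genes of mitochondrial transport held the lowest median, -0.55: 3 fell and Rhot1 did not pass, whereas on the deposited TPM 1 was higher and 1 lower. Trak1, an adaptor that joins mitochondria to motor proteins, fell by 0.90 on the log2 scale (limma adjusted p = 3.89e-09) and was lower on the deposited TPM as well (-0.39). Of 3 genes of peroxisome division, which uses DRP1 too, 1 rose, 1 fell and 1 did not pass, with the same counts on the deposited TPM. The fall was that of Pex11a, which encodes a peroxisomal membrane protein (-0.85, and -0.39 on the deposited TPM).

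Among 15 fission helpers tested of 16, 6 rose and 7 fell, with a median of -0.10, whereas on the deposited TPM 8 were higher and 1 lower. Gdap1, an outer membrane protein that promotes fission and is mutated in human Charcot-Marie-Tooth neuropathy, had 1.68, 3.06 and 9.54 scaled TPM in casted muscle, against 15.6, 17.2 and 20.6 in uncasted muscle. The groups did not overlap, and the fold change of -1.96 ± 0.32 (limma adjusted p = 1.16e-05) was the largest fall in the 5 lists (-1.51 on the deposited TPM). It was -1.49 with casted replicates 1 to 4 and -2.42 with 5 to 8. In casted muscle with MOTS-c, Gdap1 ran from 2.57 to 22.55 scaled TPM, with 7 libraries below every uncasted one and 1 above them all. Spire1, an actin nucleator with a mitochondrial isoform, was the leading rise (0.57, and 1.01 on the deposited TPM). The subunits of calcineurin, the phosphatase that releases DRP1 to mitochondria, were chosen for mention after their values were seen: Ppp3cb (-0.63) and Ppp3r1 (-0.44) fell and Ppp3ca rose (0.17), with -0.11, 0.08 and 0.68 on the deposited TPM. The ratio of Ppp3ca to Ppp3cb, free of scaling, was 1.13 ± 0.10 in casted muscle and 0.644 ± 0.038 in uncasted muscle (SD, n = 8 each), without overlap. This ratio too was chosen after a rise of one gene and a fall of the other were seen, so its separation is a description and not a test.

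Among 10 fusion helpers and OPA1 proteases tested of 11, 2 rose, 2 fell and 6 did not pass, with a median of 0.05, whereas on the deposited TPM 8 were higher and none lower. Phb fell (-0.56, with -0.05 and no call on the deposited TPM) and Stoml2 rose (0.50, and 1.01 on the deposited TPM); both encode scaffold proteins of the inner membrane, on which OPA1 processing depends. Phb2, the partner of Phb in the prohibitin ring, rose by 0.39 and was named after its value was seen. The ratio of Phb2 to Phb was 1.73 ± 0.25 in casted muscle and 0.876 ± 0.054 in uncasted muscle, without overlap, and 1.53 ± 0.15 in casted muscle with MOTS-c. It was likewise chosen after the opposite changes of its genes were seen and is a description only. Of 8 genes of cristae organisation, 2 rose and 4 fell, with a median of -0.22, whereas on the deposited TPM 5 were higher and 2 lower. Minos1, which encodes the MICOS subunit MIC10, was the leading fall (-0.80, and -0.29 on the deposited TPM) and Chchd6, which encodes MIC25, the leading rise (0.48, and 0.87).

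**Figure D4:**
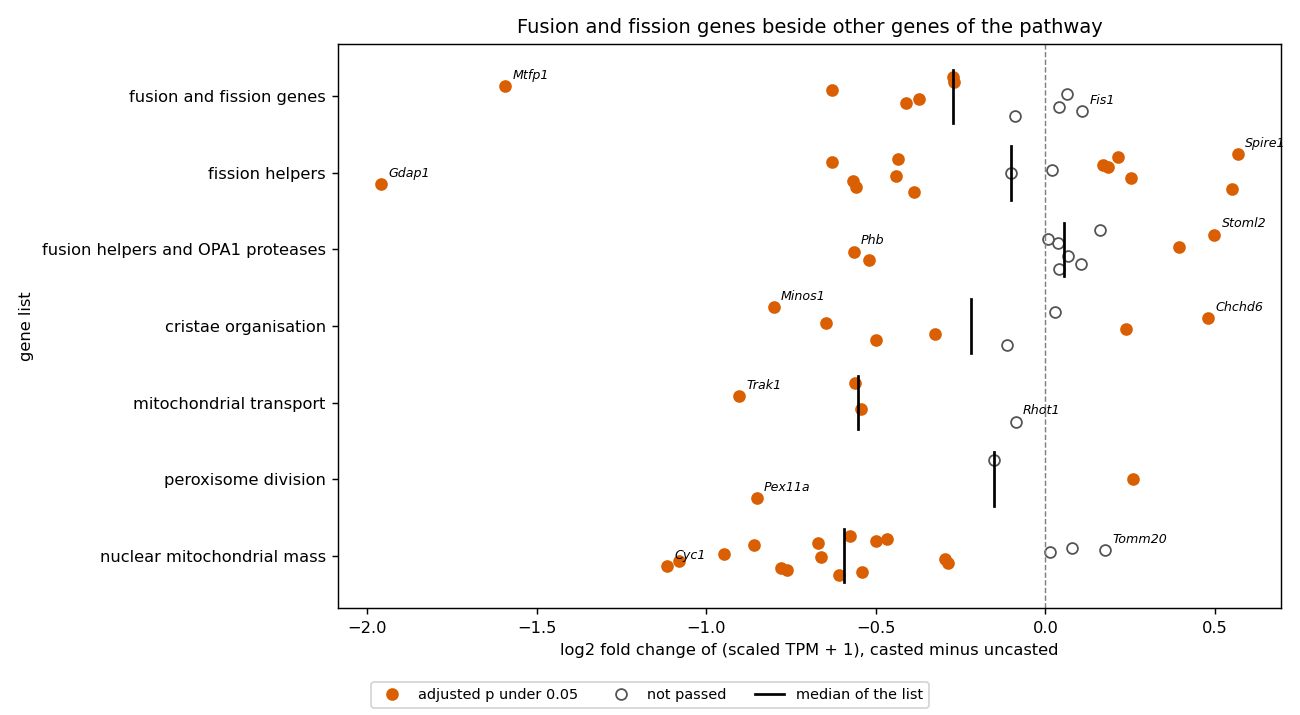
Log2 fold change of (scaled TPM + 1), casted minus uncasted muscle, for the 10 genes, 5 lists of other genes of the pathway and the nuclear mitochondrial mass genes; filled points passed the test and black lines are medians of the lists. The leftmost points are Gdap1 at -1.96 and Mtfp1 at -1.59 on this scale, and both lie below -1 on the deposited TPM too.

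With MOTS-c against casting alone, none of the 40 other genes passed the test. With only casted replicates 5 to 8 as the casted group, 6 did: Pex11a (0.46) and Inf2 (0.48) were higher, and Afg3l2 (-0.26), Yme1l1 (-0.26), Stoml2 (-0.25) and Atad3a (-0.36) lower with MOTS-c. In the same fit 4.62% of all genes were higher and 5.7% lower, so these calls stand among changes of many genes. Afg3l2 and Yme1l1 encode inner membrane proteases, and Yme1l1 cuts OPA1. These calls rest on 4 casted libraries and were not made with all 8 or with replicates 1 to 4. Because the split by replicate number is arbitrary, the calls describe that subset and are not evidence of an effect of MOTS-c on these genes.

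The genes whose levels followed each member most closely are given as a description over the 24 libraries, which share the casting groups. Mtfp1 was most like Ggnbp1 (Pearson r = 0.981, and 0.817 over deviations from the group means) and Sdhd (0.980 and 0.789), which encodes a subunit of succinate dehydrogenase. Mief2 was most like Ndufb5 (0.952 and 0.796), a complex I subunit gene, and Ebag9 (0.951 and 0.767). Opa1 was most like Pdpr (0.958 and 0.931), a regulator of pyruvate dehydrogenase phosphatase, and Adcy9 (0.914 and 0.841). Mfn1 was most like Ank (0.945 and 0.876) and Ppm1a (0.941 and 0.806), Mfn2 like D17Wsu92e (0.916 and 0.883) and Nek9 (0.908 and 0.842), and Oma1 like D10Jhu81e (0.923 and 0.801) and St3gal3 (0.909 and 0.718).

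The genes that did not pass for casting had lower coefficients over the 24 libraries, where casting is part of the spread, but not all had lower ones within groups. Fis1 was most like Ubxn1 (0.803 and 0.775) and Cuedc2 (0.802 and 0.777), and Dnm1l like Msi2 (0.765 and 0.754) and Prss23 (0.715 and 0.673). Mff was most like Klhl7 (0.764 and 0.757) and Slc25a46 (0.753 and 0.751), the last an outer membrane protein of the fusion list. Mief1 was most like Dnpep (0.630 and 0.611) and Armh3 (0.612 and 0.605).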

How the data were processed

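Poly-adenylated RNA was captured for the libraries, per the labels' protocols. The deposited values are TPM per Ensembl gene, 1 table per library, made by the authors with FastQC, STAR, RSEM and DESeq2 on GRCm38.p6, per the submitters' processing notes, which name no versions; the annotation release and whether libraries keep strand are not given in the sources used here. TPM have a fixed total, so depth is unknown and no counting interval is given. Equal values in any pair of libraries made up no more than 1.34% of the tested genes, and 19832 to 21755 genes were above 0.

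A gene was tested if 8 or more libraries held 0.5 TPM or more (14690 genes). Libraries were scaled with an unweighted trimmed mean of the log ratios of these genes, leaving off 30% of the ratios and 5% of the levels at either end. With limma 3.58.1 in R 4.3.3, a linear model with 3 group means and a mean-variance trend was fitted to log2(scaled TPM + 1) of the 24 libraries, which share 1 estimate of the spread. Tests were two-sided, with Benjamini-Hochberg adjustment over all tested genes of a comparison and a threshold of 0.05. Fold changes on this scale understate the change of low genes. The model was run on simulated data that were already scaled, which cannot test the scaling between libraries. GENCODE's annotation of GRCm38 gave symbols (55141 identifiers matched) and positions, blastn 2.17.0 gave near-copies, and RefSeq gave promoters.

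The members and lists were chosen with earlier results of these data known. In each pathway list the text names the largest rise and fall past the threshold for casting and any change past 2-fold, and for each member the 2 genes with the highest correlation. Of the genes this rule took, 1 is not reported here. Alternatives were the deposited TPM, a median of log ratios, equal levels of nuclear mitochondrial genes, another pseudocount (0.1), no filter, only the groups compared, no trend, the replicate number as a block, casted replicates 1 to 4 or 5 to 8, and leaving out each library.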

Additional observations from a re-analysis of the deposited data

Results flagged for a closer look

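In 45 groups of 8 values examined (10 genes and 5 ratios in 3 groups), 3 held a library far from the others by Dixon's criterion, where chance gives about 1 in 20 groups. Mtfp1 in casted muscle with MOTS-c was highest in replicate 5, at 21.41 scaled TPM, with a gap to the next library of 0.576 of the group's range. Opa1 in uncasted muscle was lowest in replicate 8, at 36.36 scaled TPM (0.532 of the range). The ratio of Opa1 to Oma1 was lowest in the same uncasted library, at 2.139 (0.560 of the range). Without uncasted replicate 8, the casted minus uncasted value of Opa1 was -0.33 (log2).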

How the results depend on the processing

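For the counts of members and of other pathway genes past the threshold, the median of log ratios, a pseudocount of 0.1, no filter, fits of only the groups compared, no trend and the replicate block gave counts within 1.5 times those reported. Casted against uncasted, the deposited TPM gave 6 members higher and 1 lower and scaling to mitochondrial mass genes gave 6 and 1, in place of 0 and 6; of the other pathway genes 23 were higher under each and 5 and 4 lower, in place of 11 and 17, and casted replicates 1 to 4 gave 7 higher. Casted with MOTS-c against uncasted, 5 members were higher under both scalings and 2 and 1 lower, in place of 0 and 6. For MOTS-c against casting, replicates 5 to 8 gave 2 pathway genes higher and 4 lower, in place of 0, in a fit where 678 of all 14690 genes were higher and 838 lower. The total over all genes for MOTS-c against casting, 2 higher and 1 lower, was 13 and 5 with the replicate block, 3 and 5 on the deposited TPM, and 0 with a pseudocount of 0.1, no filter or only these groups (1955, 2682 and 1554 genes with an unadjusted p under 0.05). It was 41 and 22 without casted replicate 1, 20 and 6 without MOTS-c replicate 8, and 0 without casted replicate 5, 7 or 8, MOTS-c replicate 2, 4, 5, 6 or 7, or uncasted replicate 8. Leaving out each library gave 6, 0 and 6 members lower and 0 higher in the 3 comparisons, and 10 to 12 pathway genes higher and 17 to 18 lower for casting.

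Single genes that reversed on the deposited TPM and on the mass scaling, casted against uncasted, were Mfn1 (0.10 and 0.14), Mfn2 (0.14 and 0.17), Opa1 (0.23 and 0.27), Oma1 (0.22 and 0.25) and Dnm1l (0.41 and 0.45). With MOTS-c against uncasted they were Mfn1 (0.0279 and 0.1064), Mfn2 (0.0575 and 0.1361), Opa1 (0.1003 and 0.1774), Oma1 (0.1659 and 0.2397) and Dnm1l (0.3891 and 0.4662). For MOTS-c against casting, Mfn1 (-0.0752), Oma1 (-0.0499), Dnm1l (-0.0248), Mff (-0.0684) and Mief2 (-0.0319) reversed on the deposited TPM, Mfn1 (-0.0297), Oma1 (-0.0067) and Mff (-0.023) on the mass scaling, and Mfn1 (-0.0081) and Mff (-0.0015) with the median of ratios. With casted replicates 1 to 4, Mfn1 (-0.0105), Mfn2 (0.0656), Opa1 (0.0103), Dnm1l (-0.0053) and Mief2 (-0.107) reversed, and with 5 to 8 Mff (-0.0284) did. Leaving out libraries gave Mfn1 -0.0268 to 0.0396, Mfn2 -0.0828 to 0.0332 and Mff -0.0183 to 0.0273 for MOTS-c against casting, and Mief1 -0.0289 to 0.0453 for MOTS-c against uncasted. The cause was not tested beyond the scalings' construction, which moves all genes together.

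The replicate numbers are not stated to pair mice, and libraries of the same number did not all deviate together (correlations from -0.245 to 0.371). A fit with the replicate block gave 6 members lower for casting and 0 for MOTS-c against casting, and changed no call on the 10 genes. TPM carry no depth, which limits what can be said of the precision of the lowest gene, Mief1.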
